A study of Mus musculus with 5 samples.

Results

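The ErbB receptors (Egfr, Erbb2, Erbb3 and Erbb4) and their neuregulin ligands (Nrg1, Nrg2, Nrg3 and Nrg4) were examined in ribosome-bound RNA of Drd2-expressing neurons from mouse central amygdala (CeA). Members were taken by gene name. Of the 8 genes, 7 were among the 15093 listed in the table of values, and Nrg4 was not listed. Each listed gene exceeds 1 in at least 1 library on the scale of the values, a normalized signal close to CPM and called CPM below, so Nrg4 counts here as not expressed. The family was picked with the result of Erbb4 in these same libraries already known, so the comparison of groups is a description for every member and carries no test.

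All mice were adult Drd2-TRAP animals, in which Cre recombinase driven by Drd2 regulatory DNA switches on a GFP-tagged ribosomal protein L10a from the Rosa26 locus, so that tagged ribosomes can be pulled down with their RNA (translating ribosome affinity purification, TRAP). There were 3 libraries from fear conditioned mice (FC, replicates 2, 3 and 4) and 2 from control mice (HC, replicates 6 and 7), each a pool of bilateral CeA punches from 3 animals. The FC mice received tones paired with foot shock. The labels call the controls home cage animals and place collection 2 h after extinction, while the paper's text describes controls given the tone without shock and collection 2 h after conditioning. A Cre-dependent tag stays on in any cell that has once had Cre, and RNA that sticks to the beads without tagged ribosomes would also be counted. The unbound RNA was not used here.

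The ErbB receptors are receptor tyrosine kinases that signal as pairs after binding ligands with an EGF-like domain. ErbB4 binds neuregulins and is an active kinase, ErbB3 binds neuregulins but has little kinase activity of its own, ErbB2 has no known ligand of its own and serves as a partner, and EGFR binds EGF, TGF-alpha and related ligands. In the brain, ErbB4 is best known in GABAergic interneurons, ErbB3 in the oligodendrocyte lineage and EGFR in astrocytes and glial progenitors, and neuregulin signalling through ErbB4 is a regulator of GABAergic transmission.

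Promoter windows from RefSeq (GRCm38.p6) are described for Egfr, Erbb4, Nrg3 and Nrg4, and those of the other members are not reported here. The 30 bases directly before the listed gene start are shown for the 3 members whose FC libraries all lay below both HC libraries. Each is written 5′ to 3′ on the strand of the gene, with CpG dinucleotides in capitals.
Erbb4 (chr1:69108060-69108089, minus strand): agtgaggagggaaCGagCGagCGgaggatc
Egfr (chr11:16752173-16752202, plus strand): cttctttagtccctcctcctccCGcccagc
Nrg3 (chr14:39473089-39473118, minus strand): taggCGggctgcagactCGcccCGcCGctc
The 250 bases before the start held 12 CpG in Erbb4, 11 in Egfr, 27 in Nrg3 and 10 in Nrg4, against a median of 6 over all 32851 promoter windows of the table. Their GC content was 54.0% in Erbb4, 60.8% in Egfr, 72.4% in Nrg3 and 53.2% in Nrg4, and the median of all windows was 52.4%. A TATA box (TATAAA, gene strand only), present in 7.59% of all windows, was found in none of these 4 windows. A GC box (GGGCGG, both strands) was found in Egfr and in 32.7% of all windows. These matches describe letters in the window and were not tied to the expression values.

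Depth was 21070588, 25022225 and 19988438 reads on genes in FC replicates 2, 3 and 4, and 27937520 and 19605318 in HC replicates 6 and 7. A floor of 3 reads corresponds to between 0.1002 and 0.158 CPM and allows for counting error alone, because PCR copies are not separate molecules. The HC libraries stood apart from each other. As a description over genes, Pearson's r of log2(CPM + 1) was 0.787 between the HC libraries and at least 0.979 between FC libraries. Between an FC and an HC library it was 0.826 to 0.911, so each HC library was more like every FC library than like the other HC library. HC replicate 7 listed 2681 genes at 0, HC replicate 6 listed 976, and the FC libraries between 159 and 349. Such zeros were most frequent among low genes. Among the 4373 genes with a mean of 1 to 10 CPM in FC, 34.004% were at 0 in HC replicate 7 and 12.1% in HC replicate 6, and among the 6585 genes with 10 to 100 CPM these shares were 2.26% and 0.121%. The log2 differences of Egfr, Erbb3 and the neuregulins are given with and without each HC library.

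Erbb4 (ENSMUSG00000062209), the main neuregulin receptor of neurons, had 6.07, 5.997 and 9.68 CPM in the FC libraries and 56.0 and 72.5 CPM in the HC libraries. These values rest on 128, 144 and 195 reads in FC and on 1676 and 1374 reads in HC. All 3 FC libraries lay far below both HC libraries, so the groups did not overlap. The group means were 7.25 ± 2.11 CPM in FC (SD, n = 3 libraries) and 64.2 ± 11.7 CPM in HC (SD, n = 2 libraries), a mean 8.86 times as high in HC. The log2 difference, FC minus HC on the log2(CPM + 1) scale, was -3.0003 (standard error 0.44), and 17 of the 13560 genes with a mean of at least 1 CPM had a lower one. With each library left out in turn, and under the other alternatives run, it lay between -3.20 and -2.82. Erbb4 stood at percentile 33.8 to 40.0 of the listed genes in the FC libraries and at percentile 73.1 and 77.2 in the HC libraries. In pooled tissue, fewer cells carrying a transcript and less of it per cell cannot be told apart.

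**Figure D1:**
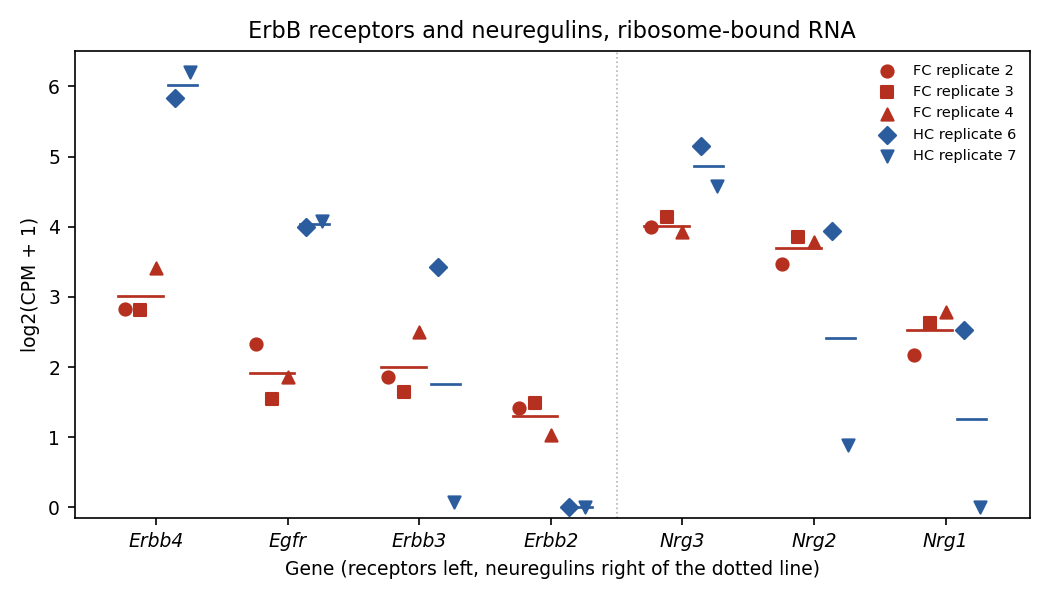
Level of the 7 listed ErbB receptors and neuregulins in each library, as log2(CPM + 1) on the vertical axis, with 1 symbol per library (FC red, HC blue) and a short line at the group mean. Erbb4, Egfr and Nrg3 are lower in all 3 FC libraries than in both HC libraries, Erbb2 is at 0 in both HC libraries, and Erbb3, Nrg2 and Nrg1 are near 0 or low in HC replicate 7 only.

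Egfr (ENSMUSG00000020122), the receptor for EGF and TGF-alpha, had 4.03, 1.92 and 2.63 CPM in FC and 14.9 and 16.0 CPM in HC. The FC libraries again lay below both HC libraries, which were close to each other. The group means were 2.86 ± 1.08 CPM in FC (SD, n = 3) and 15.4 ± 0.767 CPM in HC (SD, n = 2), and the log2 difference was -2.13 (standard error 0.55), with -2.17 without HC replicate 6 and -2.08 without HC replicate 7. The FC values come from only 85, 46 and 53 reads, and the HC values from 446 and 303.

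Erbb3 (ENSMUSG00000018166), the neuregulin receptor with a weak kinase, had 2.61, 2.12 and 4.67 CPM in FC, 9.78 CPM in HC replicate 6 and 0.0527 CPM in HC replicate 7. The last value is a single read, against 293 reads in HC replicate 6, so the HC libraries lay on either side of every FC library. The log2 difference of 0.25 (standard error 1.03) had no stable sign. It was -1.43 without HC replicate 7, 1.92 without HC replicate 6, -0.01 without FC replicate 4 and -0.50 after quantile normalization.

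Erbb2 (ENSMUSG00000062312), the partner receptor with no known ligand, was the lowest of the listed members, with 1.66, 1.79 and 1.043 CPM in FC, or 35, 43 and 21 reads. Neither HC library held a read. The FC mean of Erbb2 was 11.6 times the mean floor of 3 reads in the HC libraries. That floor allows for counting error alone, so 11.6 is not a lower bound on the difference. Its mean over all 5 libraries, 0.899 CPM, was below the minimum of 1 CPM, so it was outside the genes tested. Among the genes with a mean of 1 to 10 CPM in FC, 7.25% also had 0 reads in both HC libraries.

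Among the ligands, Nrg3 (ENSMUSG00000041014), a neuregulin with mainly neural expression that binds ErbB4, had 14.9, 16.5 and 14.2 CPM in FC and 34.6 and 22.9 CPM in HC. The FC libraries were nearly alike and all lay below the lower HC library. The means were 15.2 ± 1.22 CPM in FC (SD, n = 3) and 28.8 ± 8.27 CPM in HC (SD, n = 2), a log2 difference of -0.85 (standard error 0.40). It was -1.14 without HC replicate 7 and -0.57 without HC replicate 6. Leaving out an FC library changed it less, to between -0.91 and -0.81.

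Nrg2 (ENSMUSG00000060275), a neuregulin that binds ErbB3 and ErbB4, had 10.1, 13.4 and 12.8 CPM in FC, 14.3 CPM in HC replicate 6 and 0.844 CPM in HC replicate 7. HC replicate 6 was above every FC library and HC replicate 7 far below them, at 16 reads. The log2 difference of 1.29 (standard error 0.94) rested on HC replicate 7, and without that library it was -0.23. Without HC replicate 6 it was 2.82.

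Nrg1 (ENSMUSG00000062991), the founding neuregulin, had 3.51, 5.16 and 5.86 CPM in FC, 4.74 CPM in HC replicate 6 and 0 in HC replicate 7. HC replicate 6 lay within the range of the FC libraries, so the log2 difference of 1.26 (standard error 0.85) also rested on HC replicate 7. Without HC replicate 7 it was 0.0033, and without HC replicate 6 it was 2.52. The 142 reads in HC replicate 6 and the 74 to 124 reads in the FC libraries stand for all transcript forms of Nrg1 together, since values are per gene.

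**Figure D2:**
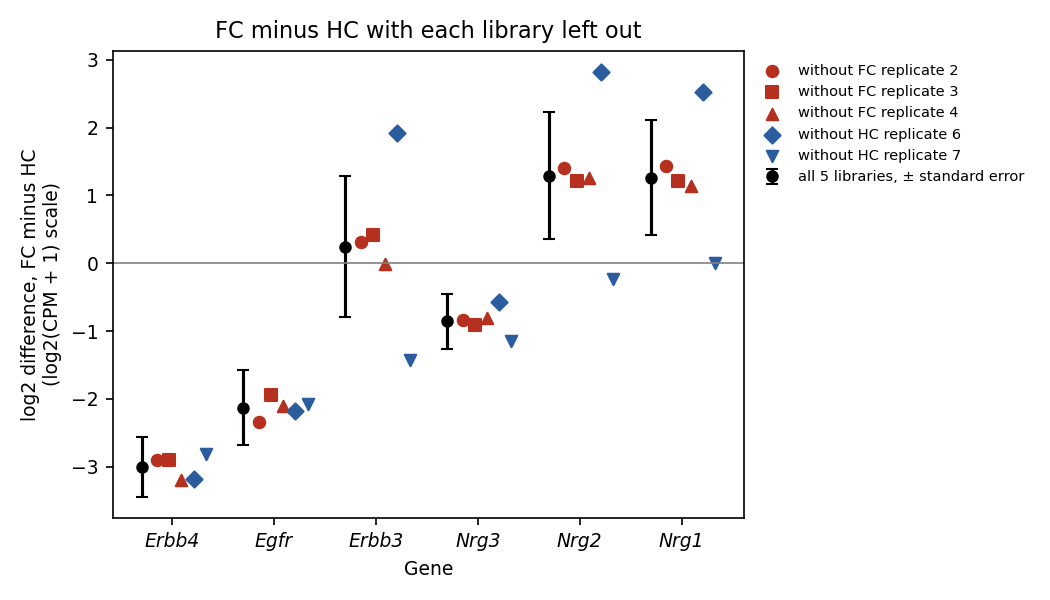
Log2 difference (FC minus HC, vertical axis, log2(CPM + 1) scale) of the 6 tested members with all 5 libraries (black, ± standard error) and with each library left out (colored symbols). Erbb4, Egfr and Nrg3 keep their sign throughout, whereas Erbb3, Nrg2 and Nrg1 move to 0 or across it when HC replicate 7 is left out.

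Of the 6 members tested, Erbb4, Egfr and Nrg3 had all FC libraries below both HC libraries, none had all above, and 3 overlapped. Over all genes tested, 36.4% had groups that did not overlap, 20.2% with FC above HC and 16.1% with FC below HC. Since the family was picked from this contrast, nothing is read from the comparison of these shares. With limma, 0% of the 13560 genes tested were called (0 genes at a Benjamini-Hochberg adjusted p under 0.05 with an absolute log2 fold change over 0.5). The smallest adjusted p was 0.197, and 2280 genes (16.8%) had an unadjusted p under 0.05, 9.49% higher and 7.32% lower in FC. On the recovered reads edgeR's quasi-likelihood test also called 0 of 14800 genes, and DESeq2 called 7.55%, 3.70% higher and 3.86% lower in FC. For a single gene, 3 libraries against 2 allow an exact permutation p of 0.1 at the lowest.

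Within groups, spread differed by member. In FC, the highest library exceeded the lowest by 1.17 times for Nrg3, 1.33 times for Nrg2, 1.61 times for Erbb4, 1.67 times for Nrg1, 1.72 times for Erbb2, 2.10 times for Egfr and 2.20 times for Erbb3. In HC, the libraries differed by 1.07 times for Egfr, 1.29 times for Erbb4 and 1.51 times for Nrg3, but by 17.0 times for Nrg2. For Erbb3, HC replicate 6 had 9.78 CPM and HC replicate 7 held 1 read. The latter is under the floor of 3 reads, so no exact ratio is given. Erbb2, at 0 in both HC libraries, and Nrg1, at 4.74 CPM and 0, have no such ratio there.

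Levels were compared between members as CPM per kb of the listed gene length. In FC, Nrg2 had the highest level (3.08 ± 0.449, SD, n = 3), followed by Nrg3 (1.70 ± 0.137), Nrg1 (1.51 ± 0.377), Erbb4 (0.568 ± 0.165), Erbb3 (0.523 ± 0.226), Erbb2 (0.276 ± 0.0736) and Egfr (0.245 ± 0.0923). The 3 listed neuregulins were above all 4 receptors in every FC library. Nrg3 and Nrg1, Erbb4 and Erbb3, and Erbb2 and Egfr were neighbours whose order differed between FC libraries, while Nrg2 exceeded Nrg3 and Nrg1 exceeded Erbb4 in all 3.

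In HC the order was led by a receptor. Erbb4 had 4.38 and 5.67 CPM per kb and was above Nrg3, at 3.88 and 2.57, in both libraries. Nrg2 had 3.65 and 0.215, Egfr 1.28 and 1.37, Erbb3 1.63 and 0.00881, Nrg1 1.48 and 0, and Erbb2 0 in both. Nrg2 and Egfr, and Egfr and Erbb3, changed places between the HC libraries. Without division by length the long gene Erbb4 (12771 bases) had the highest mean in HC (64.2 CPM), whereas in FC Nrg3 (8915 bases, 15.2 CPM) and Nrg2 (3930 bases, 12.1 CPM) were above Erbb4 (7.25 CPM).

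**Figure D3:**
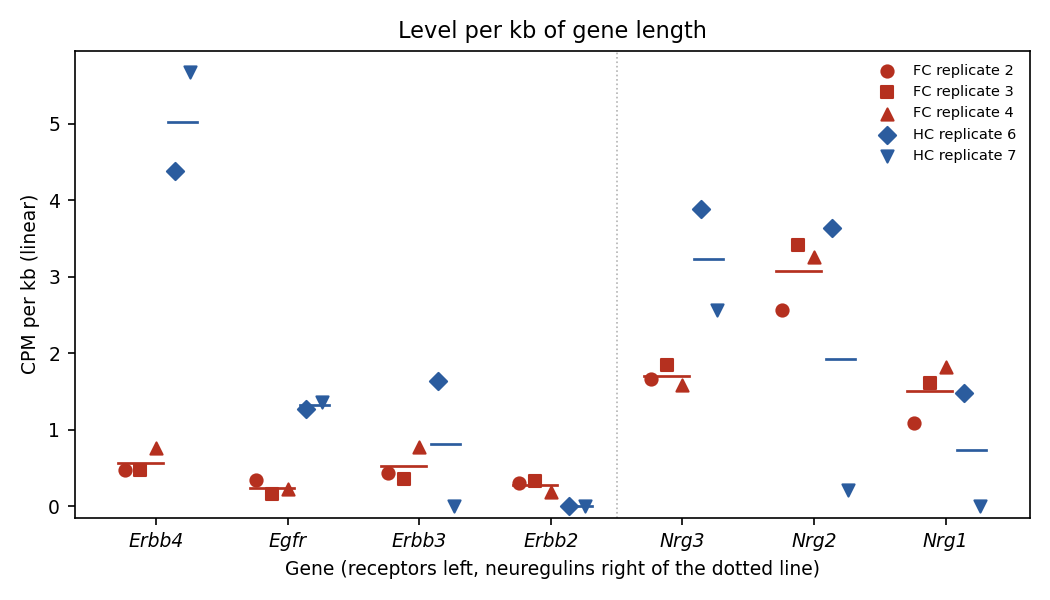
Level per kb of gene length (vertical axis, CPM per kb, linear) of the 7 listed members in each library, with FC in red, HC in blue and a short line at the group mean. In FC the neuregulins lie above the receptors, and in HC Erbb4 has the highest level, 4.38 and 5.67 CPM per kb.

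Summed over the 4 receptors, the level per kb was 1.56, 1.32 and 1.96 in FC and 7.29 and 7.05 in HC. Erbb4 made up 34.9 ± 4.22% of this receptor sum in FC (SD, n = 3 libraries), and 60.1% and 80.4% in HC replicates 6 and 7. The neuregulin sum was 5.33, 6.88 and 6.68 in FC and 9.01 and 2.79 in HC, so that FC lay between the HC libraries. Nrg2 made up 48.9 ± 0.720% of it in FC (SD, n = 3), and 40.5% and 7.70% in HC replicates 6 and 7. Within a library, the log2 ratio of Nrg3 to Erbb4 per kb was 1.81, 1.98 and 1.07 in FC and -0.17 and -1.14 in HC. That of Nrg1 to Erbb4 was 1.20, 1.78 and 1.27 in FC and -1.57 in HC replicate 6, and HC replicate 7 had no Nrg1 read. These ratios do not depend on the depth of a library, but they share the Erbb4 values that led to the choice of the family.

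The genes whose pattern over the 5 libraries was most like that of Erbb4 were Nwd1, Gbp3, Mycbpap, Il13ra1 and Calml4. Likeness was the mean absolute difference between centred log2(CPM + 1) profiles, over 10101 tested genes that ranged by at least 1 on that scale, and the values were 0.0853, 0.123, 0.190, 0.190 and 0.215. Nwd1, the closest, had 3.79, 3.00 and 5.91 CPM in FC and 33.7 and 41.4 CPM in HC. Mycbpap had 0.142, 0.0416 and 0.397 CPM in FC and 4.78 and 9.60 in HC. Calml4 had 0, 0.167 and 0 CPM in FC and 6.95 and 8.33 in HC. At such low FC values the added 1 CPM compresses differences, so likeness on this scale does not mean an equal ratio between groups. For Egfr the closest genes were Lrrc16b and Fam69c, for Nrg3 Foxred1 and Tchp, for Nrg2 Hsdl2 and Suv420h2, for Nrg1 A730020E08Rik and Zxdb, and for Erbb3 Igdcc4 and Lcat. Hsdl2 had 28.4, 35.4 and 35.4 CPM in FC, 39.5 in HC replicate 6 and 3.69 in HC replicate 7, the same shape as Nrg2 at a higher level. No gene of 1 member's list was shared with another member, among the 5 closest of each.

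Genes around the receptors were described from lists of 83 pathway genes, of which 78 were listed and tested. Of these, 0 were called by limma (against 0% of all genes tested), and 10 had an unadjusted p under 0.05, against 16.8% of all genes tested. The groups did not overlap in 29 of the 78, 15 with FC above HC and 14 with FC below, or 37.2% against 36.4% of all genes tested. The counts of each list below stand against 20.2% of all genes tested with FC above HC and 16.1% with FC below. The median log2 difference of the 78 genes was 0.12, and that of all genes tested was 0.08.

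The other EGF family ligands were few. Egf, Areg, Ereg, Epgn and Btc were not listed. Tgfa (ENSMUSG00000029999), a ligand of EGFR, had 65.1, 139 and 113.0 CPM in FC and 47.7 and 31.8 in HC, all FC libraries above both HC libraries, with a log2 difference of 1.35 (standard error 0.40, limma adjusted p = 0.217). Hbegf (ENSMUSG00000024486), a ligand of EGFR and ErbB4, had 11.2, 8.91 and 10.6 CPM in FC and 21.1 and 24.9 in HC, all FC libraries below, with a log2 difference of -1.10 (standard error 0.43, limma adjusted p = 0.285). The 2 listed ligands therefore lay on opposite sides, as values that did not pass the test.

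Among 10 proteases that shed neuregulins or cut ErbB4 within the membrane, 3 had FC above HC and 2 FC below, with a median log2 difference of 0.25. Among the highest was Adam17 (1.93), the sheddase also called TACE, and the lowest were Aph1b (-1.16) and Psen2 (-1.13), both parts of gamma-secretase. Adam17 had 6.12, 5.37 and 5.71 CPM in FC and 1.80 and 0.105 in HC. It was thus lowest in HC replicate 7, as Nrg1, Nrg2 and Erbb3 were. Bace1, the protease that cleaves Nrg1 in myelination, had a log2 difference of -0.40 (standard error 0.29) with overlapping groups.

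Among 21 adaptors and enzymes that bind or follow the receptors, 5 had FC above HC, 4 had FC below and 12 overlapped, with a median of 0.16. Shc3, an adaptor of neurons, had 8.39, 15.3 and 12.5 CPM in FC and 2.91 and 0.0527 in HC, a log2 difference of 2.65 (standard error 0.74, limma adjusted p = 0.214), the highest of all 78 genes. Src, a tyrosine kinase, had 14.9, 13.1 and 13.9 CPM in FC and 23.4 and 100.2 in HC, a difference of -1.73 (standard error 0.63, limma adjusted p = 0.259), the lowest of the 78. Grb7 (2.02) and Cblb (-1.17) came next in each direction. Grb2, which links receptors to Ras, had overlapping groups and a difference of 0.22 (standard error 0.35).

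In the MAP kinase branch, 7 of 10 genes overlapped between groups and the median was 0.30. Hras (0.64) and Map2k2 (0.63) were highest, and Mapk3 (-0.36) and Map2k1 (-0.04) lowest. In the PI3 kinase and mTOR branch, 9 of 13 overlapped and the median was 0.30. Pik3r3 (1.41) and Akt2 (1.06) were highest, and Gsk3b (-1.06) and Pik3cb (-0.84) lowest. Akt2 had 80.5, 130.1 and 93.4 CPM in FC and 40.3 and 55.0 in HC, above both HC libraries in every FC library, with a limma adjusted p of 0.217.

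Of 14 genes listed as negative regulators of ErbB signalling, 11 had a log2 difference below 0, with a median of -0.46. All FC libraries lay below HC for 5 of the 14 and above HC for 1. Whether each listed gene acts in that way was not checked here. Of all genes tested, 46.0% had a difference below 0, 16.1% had all FC libraries below HC and 20.2% had all above. The lowest were Lrig3 (-1.33) and Lrig1 (-0.81), membrane proteins of which Lrig1 promotes loss of ErbB receptors. Lrig2 (2.05) was highest and Wwp1 (0.15), a ubiquitin ligase, came next. Lrig1 had 14.1, 11.9 and 14.6 CPM in FC and 19.6 and 30.4 in HC. Nedd4, a ubiquitin ligase and the most abundant gene of the list, had 261, 322 and 325 CPM in FC and 421 and 409 in HC, a difference of -0.46 (standard error 0.21, limma adjusted p = 0.328). None of the 14 passed the test.

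The 8 scaffolds that bind ErbB receptors or the proteins around them at synapses had overlapping groups throughout, with a median of -0.01. Dlg2 (0.56) was highest, and Dlg1 (-0.33) and Sntb2 (-0.18) lowest. Dlg4, which encodes PSD-95 and binds ErbB4, had 107, 124 and 138 CPM in FC and 70.8 and 213 in HC, a difference of -0.01 (standard error 0.46). Erbb2ip, which encodes erbin, had 26.7, 32.8 and 44.8 CPM in FC and 35.9 and 32.4 in HC, and its difference was -0.0037 (standard error 0.35).

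**Figure D4:**
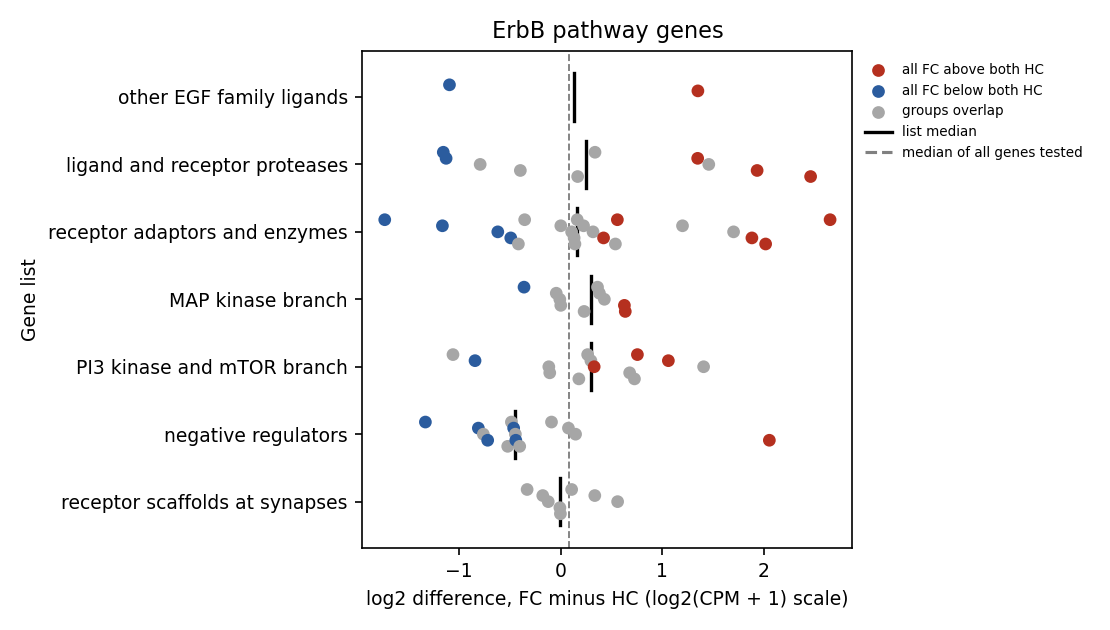
Log2 difference (FC minus HC, horizontal axis, log2(CPM + 1) scale) of the 78 tested pathway genes, 1 point per gene in rows by list, with red for all FC above both HC libraries, blue for all FC below and grey for overlapping groups. Black bars mark list medians, between -0.46 for negative regulators and 0.30 for the MAP kinase and PI3 kinase branches, and the dashed line marks the median of all genes tested, 0.08.

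Markers of Drd2 striatal-type neurons and of other cells the punch could hold were read in the same libraries. The most abundant marker of a list is the one with the highest mean over all 5 libraries, and need not be highest in each library. Drd2 was present in every library, with 326, 375 and 555 CPM in FC and 128 and 262 in HC, and so was Adora2a, with 453, 771 and 775 CPM in FC and 105 and 275 in HC. The 10 markers of such neurons summed to 22842, 23840 and 25245 CPM in FC and 8689 and 14746 in HC, with Penk the most abundant. Without Penk the sums were 6765, 10276 and 10295 CPM in FC and 2591 and 6141 in HC. Of the 10, 7 had FC above HC, 0 had FC below and 3 overlapped, against 20.2% above and 16.1% below of all genes tested. The sum for these neurons was thus higher in every FC library, and the values of Erbb4, Egfr and Nrg3 were lower there.

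The 10 markers of GABAergic interneurons, cells known for ErbB4, summed to 186, 135 and 184 CPM in FC and 384 and 290.1 in HC, with Npy the most abundant. Of the 9 tested, 2 had FC below HC, none above and 7 overlapped, against 16.1% below and 20.2% above of all genes tested. Their defining markers moved apart, with Lhx6 at 14.98, 13.7 and 16.1 CPM in FC, 47.4 in HC replicate 6 and 0.527 in HC replicate 7, and Pvalb at 20.8, 4.87 and 31.0 in FC and 17.3 and 46.2 in HC. Nxph1 and Htr3a were at 0 in HC replicate 7, while Erbb4 was highest in that library. The markers of intercalated cells summed to 95.1, 109 and 163 CPM in FC and 76.4 and 148 in HC, overlapping, with Foxp2 at 25.5, 28.9 and 36.0 in FC and 19.0 and 43.2 in HC, and Tshz1, the most abundant, at 35.4, 37.1 and 42.0 in FC and 42.3 and 77.4 in HC. Drd1a of the same list went the other way, with 33.9, 42.8 and 83.5 CPM in FC, all above 15.2 and 27.6 in HC, and Oprm1 was at 0 in both HC libraries. The part of these cells in the Erbb4 difference was not tested.

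Glial lists also moved with the groups, and their counts stand beside 16.1% of all genes tested with FC below HC and 20.2% with FC above. The 10 astrocyte markers summed to 1068, 901 and 1110.1 CPM in FC and 2336 and 3013 in HC, with Slc1a2 the most abundant, 7 of 10 below in all FC libraries and 3 overlapping. Of the defining markers, Gja1 had 49.5, 46.0 and 50.1 CPM in FC and 69.7 and 251 in HC, while Aqp4 had 22.0, 15.2 and 21.1 in FC and 62.8 and 15.8 in HC. The 8 markers of oligodendrocyte precursors summed to 143, 99.6 and 168 CPM in FC and 206 and 245 in HC, with Cacng4 the most abundant, and 4 of 8 were below in all FC libraries. Their defining marker Pdgfra had 13.6, 9.95 and 7.001 CPM in FC and 39.8 and 22.5 in HC, and Cspg4 overlapped. The 10 oligodendrocyte markers summed to 1849, 1282 and 2724 CPM in FC and 2826 and 5416 in HC, with 6 of 10 below in FC. Mog had 30.7, 20.0 and 49.7 CPM in FC and 58.2 and 98.9 in HC, and Mbp overlapped. None of these 3 glial lists had a gene at 0 in any library. Egfr shared the direction of the astrocyte and precursor sums, and their part in it was not tested. The oligodendrocyte sum was highest in HC replicate 7, the library with 1 read of Erbb3 and with 43.1% of the genes of 1 to 10 CPM at or under the floor, and the part of these cells in the Erbb3 values was not tested.

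Other lists also had lower sums in FC, and their counts are to be read against the same shares of all genes tested, 16.1% below and 20.2% above. The 9 pallial glutamatergic markers summed to 258, 253 and 59.9 CPM in FC and 541 and 414 in HC, with Slc17a7 the most abundant (152, 141 and 34.5 in FC, 227 and 197 in HC), 4 below in FC, 1 above and 4 overlapping. The 7 central amygdala markers summed to 296, 169 and 157 CPM in FC and 306 and 546 in HC, with Sst the most abundant. Of these, 4 were below in FC and 3 overlapped. The highest marker within a library was Nts in FC replicate 3 and Sst in the others. Without that marker the sums overlapped (163, 99.6 and 85.4 in FC, 159.99 and 266 in HC). Their defining marker Prkcd had 11.5, 11.9 and 11.2 CPM in FC and 14.2 and 41.1 in HC, and Crh overlapped, while Tac2 was at 0 in HC replicate 7. The 10 choroid plexus markers summed to 113, 185 and 118 CPM in FC and 2246 and 1949 in HC. Ttr, the most abundant over all 5 libraries, had 0.522, 22.1 and 0.348 CPM in FC and 913 and 1320 in HC. In every FC library the choroid plexus markers Enpp2 and Clic6 were above Ttr. Of the 9 tested, 6 were below in FC and 3 overlapped, with Folr1 and Kcnj13 at 0 in FC replicate 2, Aqp1 at 0 in FC replicates 3 and 4 and HC replicate 7, and Otx2 at 0 in HC replicate 7. The 8 endothelial markers summed to 45.9, 18.7 and 46.1 CPM in FC and 68.9 and 194 in HC, with 2 of the 7 tested below in FC, 1 above and 4 overlapping. Ly6c1, the most abundant, was below in all FC libraries, Cldn5 was above and Tek was at 0 in both HC libraries. The 8 microglial markers summed to 99.2, 54.6 and 100.8 CPM in FC and 105 and 89.1 in HC, overlapping, with 2 of 8 above in FC, 1 below and 5 overlapping, and Csf1r, the most abundant, was the 1 below while Cx3cr1 overlapped. With 3 libraries against 2 these sums were not tested, and their part in the values of Erbb4, Egfr and Nrg3 was not tested either.

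**Figure D5:**
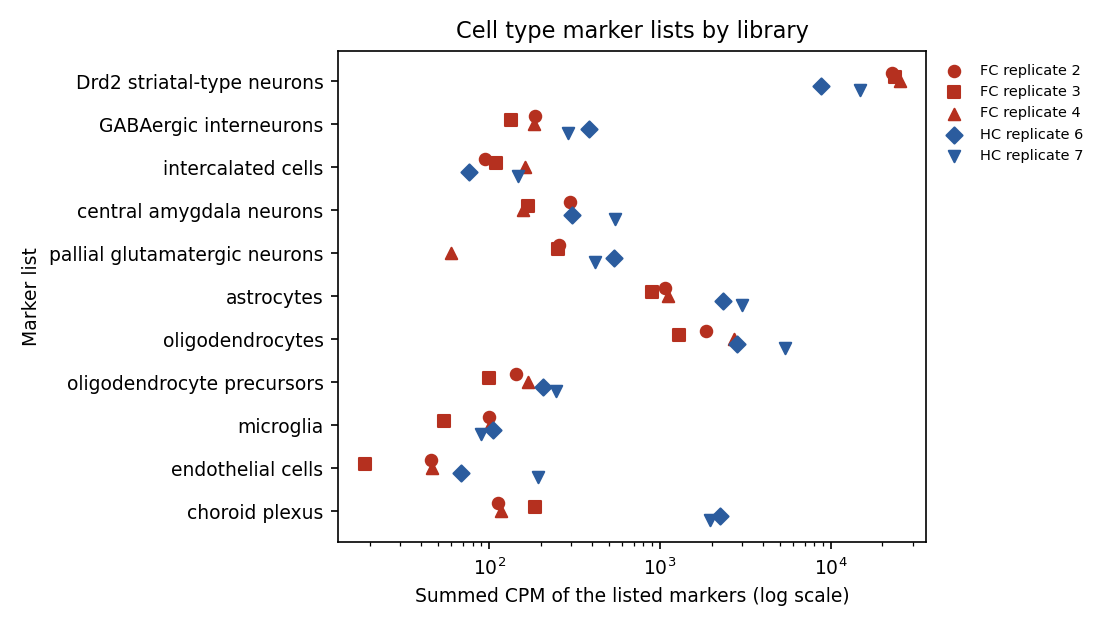
Summed CPM of each cell type marker list (horizontal axis, log scale) in each library, with FC in red and HC in blue. The sum for Drd2 striatal-type neurons is higher in all FC libraries (22842 to 25245 CPM against 8689 and 14746), those for intercalated cells and microglia overlap, and the other lists, such as choroid plexus, are lower in all FC libraries.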

How the data were processed

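Ribosome-bound polyA RNA from 3 FC and 2 HC pools was sequenced. The authors deposited 1 normalized signal per gene and library, scaled to an effective library size and written CPM here. The values of each library add up to between 932938 and 1042030, and a gene length in bases stands beside them. The methods name the authors' software as Tuxedo DESeq. The submitters' processing notes list DESeq and mm8, and the aligner, annotation and strand setting are not given in the sources used here. Dividing by what 1 read is worth in a library gave whole numbers within 0.01 for 100% of values, and these are the recovered reads.

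Groups follow the labels. Nothing says that pools came from separate cohorts, so p-values measure only the spread between these libraries, which may be technical. Members, lists, rules and tests were chosen with earlier results of these data known. The genes named are the 8 members, the 2 highest and 2 lowest pathway genes of each list, defining and most abundant markers, and the nearest profiles (5 for Erbb4, 2 for others). A few others (Bace1, Grb2, Nedd4, Dlg4, Erbb2ip and single markers) were chosen after their values were seen. Some genes and sequences that this rule would name are not reported here.

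limma 3.58.1 (eBayes with a trend) was fitted on log2(CPM + 1) to the 13560 genes with a mean of at least 1, as a two-sided test with p-values adjusted by Benjamini and Hochberg. This scale understates changes of low genes. Recovered reads of the 14800 genes with a mean of at least 10 were tested with edgeR 4.0.16, DESeq2 1.42.0 and limma voom as alternatives. The fits were also run on simulated data, and the outcome is not reported here. Identifiers served as keys since 43 names are repeated, and 9 lengths are below 0, but no member is among either. Symbols were matched through gene name and RefSeq synonym tables, and promoter windows come from RefSeq. R 4.3.3, Python 3.11.15, pandas 2.3.3 and matplotlib 3.10.9 were used.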

Additional observations from a re-analysis of the deposited data

How the results depend on the processing

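The count of 0 genes called by limma stayed 0 with a pseudocount of 0.1, without a filter on low values, with at least 1 CPM in every library, after quantile normalization, at an adjusted p of 0.1, with edgeR's quasi-likelihood test under TMM (2364 genes at an unadjusted p under 0.05) or upper quartile normalization (2330) and with limma voom (2454). DESeq2 called 1118 genes, 571 of them lower in FC, and 2 of the pathway genes, Src and Tgfa. With each library left out, limma called between 0 and 8025 genes and between 0 and 46 pathway genes. It called 8025 without HC replicate 6, 3722 without HC replicate 7 (with 14 pathway genes), and 1, Ttr, without FC replicate 3. With 1 HC library left, that library is assumed to vary like the FC libraries, which were more alike than the HC libraries. Of the 6 members tested, those whose groups do not overlap numbered 4 without FC replicate 2 and 3 without FC replicate 3 or 4. The matching share of all genes is not given for these settings, so nothing is read from these counts. Without an HC library no such count is given, because a group of 1 library overlaps less easily. The log2 difference of Erbb4 moved by less than the spread between libraries in all 13 alternatives (-3.20 to -2.82), and those of Egfr (-2.47 to -1.94) and Nrg3 (-1.14 to -0.57) kept their sign. Erbb3 changed sign in 6 of 12 alternatives and Nrg2 in 1 of 12. Nrg1 (1.26) ranged from 0.0033 without HC replicate 7 to 3.48 with voom and was 2.80 with a pseudocount of 0.1. The median log2 difference of all genes tested, 0.08, shifted by -0.19 with DESeq2, -0.15 with edgeR under TMM, 0.14 with voom, 0.11 without HC replicate 6 and -0.12 without HC replicate 7. No paired analysis was possible because the groups share no replicate number. Outlying libraries cannot be tested in groups of 3 and 2.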
